A study of Mus musculus with 2 samples.

Results

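The 10 classical MAP kinase phosphatases of the dual specificity phosphatase (DUSP) family were followed between 2 arrays of mouse embryonic stem cells. They are Dusp1, Dusp2, Dusp4, Dusp5, Dusp6, Dusp7, Dusp8, Dusp9, Dusp10 and Dusp16, chosen by gene symbol among the non-control probes, and all 10 were measured on both arrays, as were 21018 genes in all. The cells were of the line 46C, a mouse embryonic stem cell line known for a fluorescent reporter at Sox1, grown on feeder cells with serum and LIF, the feeders being taken away before RNA was harvested. One array held RNA of cells with a control short hairpin (shCtrl) and the other RNA of cells with one directed at LincU, a long noncoding RNA (shLincU), so each group has 1 array. The sources used here do not say whether either culture was a clone or a pool, nor how the hairpins were driven. The control sample is called WT in its title and shCtrl in its genotype label. LincU was not analysed here, so the knockdown was not checked and each direction rests on the array labels. From the title, the question is how LincU relates to ERK activity in naive pluripotent cells.

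MAP kinase phosphatases remove phosphate from both the threonine and the tyrosine of the activation loop of a MAP kinase, and so switch the kinase off. The nuclear class (Dusp1, Dusp2, Dusp4 and Dusp5) is encoded by genes that growth factors and stress induce, the cytoplasmic class (Dusp6, Dusp7 and Dusp9) prefers ERK, and the remaining class (Dusp8, Dusp10 and Dusp16) prefers the stress kinases JNK and p38. Several are themselves ERK target genes, which makes them both brakes on the pathway and readouts of it. In mouse embryonic stem cells FGF-ERK signalling prepares the exit from naive pluripotency. DUSP9, encoded on the X chromosome, is known there as an ERK phosphatase. These arrays measure RNA and say nothing of phosphatase protein or activity.

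The 10 genes were covered by 15 probes of 60 bases, each spotted once. The last 30 bases of the probes of Dusp4 and Dusp16 are shown because these genes stood furthest apart and were read by several probes, those of Dusp5 because its probes gave unequal signal, and those of Dusp1 and Dusp2 for the capitals, which mark the pentamer ATTTA, the core of AU-rich elements of short-lived messenger RNAs.
Dusp1 probe, chr17:26642624-26642683, reverse strand: acagttgtatgtttgtttATTTAtgatctg
Dusp2 probe, chr2:127163930-127163989, forward strand: agttatttgtgttcaactgacATTTAacgc
Dusp4 probe 1, chr8:35882045-35882104, forward strand: cttggtttctgtgtcagtttttactttgca
Dusp4 probe 2, chr8:35884806-35884865, forward strand: tacttgtaacttgtgtaaatagccccatct
Dusp5 probe 1, chr19:53615682-53615741, forward strand: cctactgcacattccgtacctcagtgctgg
Dusp5 probe 2, chr19:53616779-53616838, forward strand: ccatgtgaatgtgaagagaagcagtgttgc
Dusp16 probe 1, chr6:134687549-134687608, reverse strand: gtaatctcaacatgaactgcagactaacct
Dusp16 probe 2, chr6:134665656-134665696, reverse strand: actctgtgagaaatgctggaaaccgttcag
Dusp16 probe 3, chr6:134665783-134665842, reverse strand: agttcttggaatcacgactaccatgctgaa
Coordinates are those the array design gives for the whole probe in build mm9, and for Dusp16 probe 2 they span only 41 of its 60 bases. Exon and UTR annotation of that build was not used here. ATTTA occurred in 3 of the 15 probes, those of Dusp1 and Dusp2 and the dimmer probe of Dusp8, and in 8.08% of all 56605 non-control probes, searched over all 60 bases of the printed strand.

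A spot was called well above background by the flag of the scanner software. This held for 60.9% of shCtrl probes and 57.9% of shLincU probes, and no spot was saturated. The 75th percentile of the processed intensity was 626 units for shCtrl and 420 for shLincU, and each value was expressed as log2 of the intensity minus that percentile. All differences are log2, shLincU minus shCtrl, and therefore set a gene against most others of its array, the median of all genes being 0.020. Scaled instead to 8 E1A spike-in controls, which were brighter on the shLincU array by a mean of 0.32 log2 units before scaling (range -0.047 to 0.48), the median of all genes moved by -0.89. The error given with a difference is the one the scanner software assigns, mostly a preset share of the signal. For a gene with several probes it was combined as if the probes were independent, so it is smaller with more probes. Calls and gaps over 1.96 times the error therefore depend partly on probe number. The median error over all genes was 0.20. For 294 probes spotted repeatedly and measured on both arrays, spots of a probe differed by a median SD of 0.048, and in 7144 genes read by more than 1 probe the probes differed by a median SD of 0.18. None of these is a spread between cultures, the number of arrays limits the precision, and no p-value can be given. All 10 embryonic stem cell markers looked up, among them Pou5f1 and Sox2, were measured on both arrays, with differences from -0.24 to 0.28 and a median of 0.0074.

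Feeder cells are fibroblasts, which also express DUSP genes. Of 15 fibroblast markers, 13 were measured on both arrays, 9 lower and 4 higher, against 46.9% and 53.1% of all genes. At least 1.5-fold lower were 7 and at least 1.5-fold higher 2, against 4.84% and 4.78% of genes. At least 2-fold apart were 5, against 2.67% of genes. Summed as unlogged ratios to the 75th percentile, the level of these 13 markers was 44.2 for shCtrl and 34.2 for shLincU. Of these sums Vim, an intermediate filament gene not limited to fibroblasts, made up 28.1 and 26.5. The other 12 summed to 16.0 and 7.68. Dcn was lowest at -2.41 and Twist2 highest at 0.69; Lum passed the background flag only for shLincU and Pdgfra only for shCtrl. The part of feeder RNA in the phosphatase differences was not tested. In bulk RNA, fewer cells of a type and less RNA per cell cannot be told apart.

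Relative to the 75th percentile, 7 of the 10 phosphatases were higher on the shLincU array and 3 lower, while 0 of 10 were higher when scaled to E1A. Of all genes, 53.1% were higher by any amount and 46.9% lower, while scaled to E1A only 1.51% were higher. The median over the 10 was 0.30, against 0.020 for all genes, and the differences ran from -0.44 for Dusp16 to 0.87 for Dusp4. Dusp4 alone was at least 1.5-fold higher, which 4.78% of all genes were. None was at least 1.5-fold lower, against 4.84% of genes, and 0 of 10 were at least 2-fold apart, against 2.67% of genes. Scaled to E1A, 0 members were at least 1.5-fold higher, against 0.4% of genes, 5 at least 1.5-fold lower, against 84.4%, and 1 at least 2-fold apart, against 32.5%. A difference over 1.96 times the scanner error was found upward in 3 members (Dusp4, Dusp8 and Dusp5), against 10.6% of all genes, and downward in 1 (Dusp16), against 10.3%. The unscaled intensity was lower on the shLincU array for 11 of the 13 measured probes and higher for only the 2 of Dusp4.

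**Figure D1:**
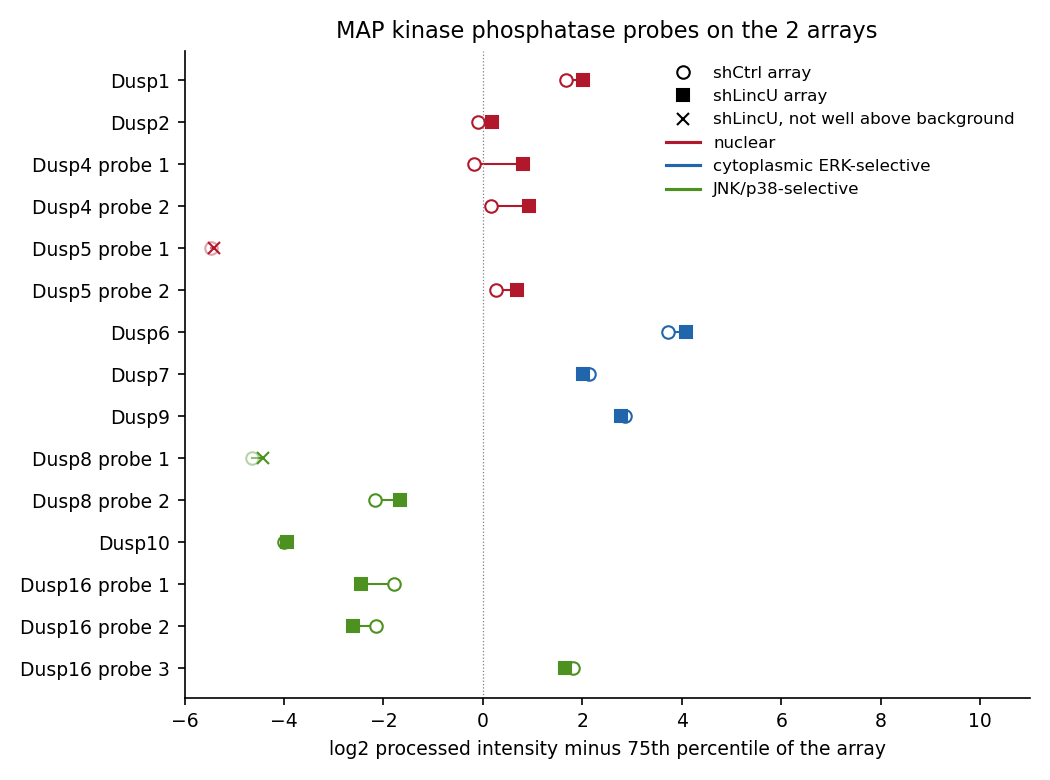
Level of each of the 15 probes on the shCtrl array (open circles) and the shLincU array (squares; crosses where the probe was not well above background), as log2 processed intensity minus the 75th percentile of that array, coloured by class. Both Dusp4 probes and the probes of Dusp1, Dusp2, Dusp5, Dusp6 and Dusp8 lie further right on the shLincU array. All 3 Dusp16 probes lie further left. Levels of different probes cannot be ranked against each other. Averaged per gene and scaled to E1A, none of the phosphatases lay higher on the shLincU array.

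In the nuclear class all 4 members were higher, as were 53.1% of all genes, and the class median was 0.38. Scaled to E1A, no member was higher and the class median was -0.52. Dusp4, also called MKP-2, acts on ERK and JNK in the nucleus. Its probe 1 read 549 ± 55.2 intensity units (scanner error) for shCtrl and 731 ± 73.3 for shLincU. Its probe 2 read 703 ± 70.5 and 798 ± 80.0. Both probes thus gave more signal on the shLincU array even before scaling, by 0.41 ± 0.20 and 0.18 ± 0.20 log2 units. The E1A controls were also brighter there, by a mean of 0.32 log2 units. The differences were 0.99 and 0.76 after scaling, and their gap of 0.23 was within its error of 0.29. The gene's difference was 0.87 ± 0.14 (scanner error, 1 array per group), a 1.83-fold higher level, and 98.3% of all genes had a lower difference. Scaled to E1A it was -0.020.

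Dusp5 is a nuclear phosphatase selective for ERK. Its probe 2 read 749 ± 75.1 units for shCtrl and 672 ± 67.3 for shLincU, a difference of 0.42 ± 0.20 after scaling. The array design names a RefSeq transcript for probe 1 and an Ensembl transcript for probe 2. Probe 1 of Dusp5, about a kilobase upstream on the same strand, read 14.1 and 9.94 units and was not well above background on either array. The value of Dusp5 therefore rests on 1 probe, and with the dim probe averaged in, as without a background filter, it was 0.24 ± 0.41 and no longer over 1.96 times its error. Dusp1, or MKP-1, an immediate early phosphatase of ERK, JNK and p38, read 1986 ± 199 units for shCtrl and 1685 ± 169 for shLincU. Its difference was 0.34 ± 0.20. Dusp2, also known as PAC1, read 588 ± 59.0 and 475 ± 47.6 units, and its difference was 0.27 ± 0.20. For Dusp1 and Dusp2 the difference was within 1.96 times the error, and the signs of both depend on the scaling. Within the class Dusp4 stood above Dusp1 by 0.54 ± 0.25 and above Dusp2 by 0.61 ± 0.25, both over 1.96 times the error. The gap of 0.46 ± 0.25 to Dusp5 was not.

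The cytoplasmic ERK-selective class had a median of -0.089, and -0.98 scaled to E1A. Dusp6, or MKP-3, the ERK phosphatase most often read as an index of FGF-ERK signalling, read 8212 ± 821 units for shCtrl and 7108 ± 711 for shLincU. Its difference was 0.37 ± 0.20, and 88.1% of genes had a lower one. Dusp7, or MKP-X, a close relative of Dusp6, read 2735 ± 274 and 1706 ± 171 units, a difference of -0.11 ± 0.20. Dusp9, or MKP-4, read 4565 ± 456 and 2882 ± 288 units, a difference of -0.089 ± 0.20. The range of 1.96 errors around the value of Dusp9 ran from -0.49 to 0.31 and includes 0. It holds scanner error only, neither the spread between cultures nor the choice of scaling, and so does not bound the change in RNA. Scaled to E1A, Dusp9 was at -0.98. Dusp6 stood above Dusp7 by 0.47 ± 0.29 and above Dusp9 by 0.46 ± 0.29, gaps within 1.96 times their error. Dusp7 and Dusp9 differed from each other by 0.017.

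The class that prefers JNK and p38 went both ways, with a median of 0.067, which was -0.83 scaled to E1A and 0.29 with normexp background correction. Averaged over the measured probes of a gene, each of its 3 members gave signals below the median over all genes, a range in which 7.39% of genes were at least 1.5-fold higher and 7.28% lower. Dusp8 read 138 ± 14.6 units for shCtrl and 133 ± 13.9 for shLincU with its brighter probe, a difference of 0.52 ± 0.21. Its other probe read 24.95 and 19.6 units and was not well above background on either array. Without a background filter, which brings that probe in, Dusp8 was at 0.37 ± 0.27, within 1.96 times its error. Dusp10, or MKP-5, read 39.1 ± 6.49 and 27.5 ± 5.36 units, near the lowest signals called well above background. Its difference was 0.067 ± 0.37, and its spot was the only one among the 15 with several neighbouring spots that differed at least 2-fold in one direction.

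Dusp16, or MKP-7, a phosphatase of JNK and p38 that shuttles between nucleus and cytoplasm, was lower with each of its 3 probes. Probe 1, for which the array design names an Ensembl transcript, read 181 ± 18.8 units for shCtrl and 76.3 ± 8.85 for shLincU. Its difference was -0.67. Probe 2 read 142 ± 15.1 and 68.9 ± 8.26 units, a difference of -0.47. Probe 3, the brightest and the one designed to the RefSeq transcript, read 2204 ± 220 and 1312 ± 131 units. Its difference of -0.17 ± 0.20 was within 1.96 times the error. The gap between probes 1 and 3 was -0.50 ± 0.30, within 1.96 times its error. The gene's difference was -0.44 ± 0.13, and 8.63% of genes had a lower one. It was -0.17 with the brightest probe alone and -0.19 with normexp background correction, so its size rested on the dimmer probes. So did its passing 1.96 times the error. Dusp8 stood above Dusp16 by 0.96 ± 0.25, the widest gap within a class.

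**Figure D2:**
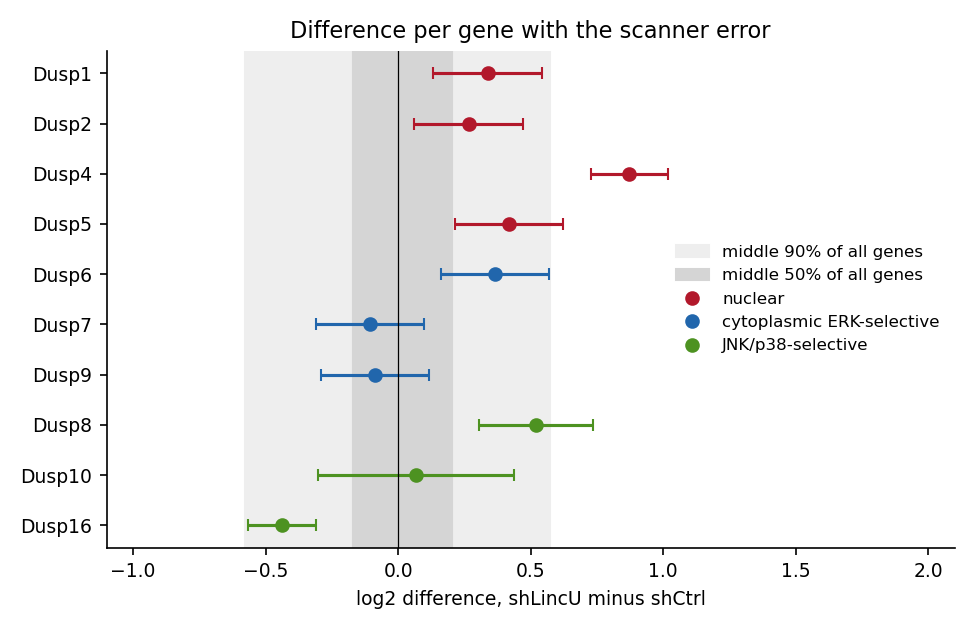
Log2 difference of each gene, shLincU minus shCtrl relative to the 75th percentile, with bars of 1 scanner error (1 array per group, so no spread between cultures). The grey bands hold the middle 50% and 90% of all 21018 genes; Dusp4 at 0.87 is the only phosphatase outside the wider band, and scaled to E1A it would lie at -0.020.

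Put in order, the differences ran Dusp4, Dusp8, Dusp5, Dusp6, Dusp1, Dusp2, Dusp10, Dusp9, Dusp7 and Dusp16. None of the 9 gaps between neighbours in this order was over 1.96 times its error, but sorting itself makes such gaps small. Of the 12 pairs within a class, 3 had a gap over 1.96 times its error: Dusp4 with Dusp1, Dusp4 with Dusp2, and Dusp8 with Dusp16. The share of such pairs among all genes was not computed. Each of these 3 pairs holds Dusp4 or Dusp16, read by several probes, and more probes give a smaller error. Of the 15 spots, 8 lay in the upper rows of the array and 7 in the lower rows. The lower rows had more spots at least 2-fold apart, 4.09% against 1.34%. The measured spots within 5 rows and 5 columns of a phosphatase spot had median differences from -0.080 to 0.095, and taken less that local median Dusp4 was at 0.79 and Dusp16 at -0.51.

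**Figure D3:**
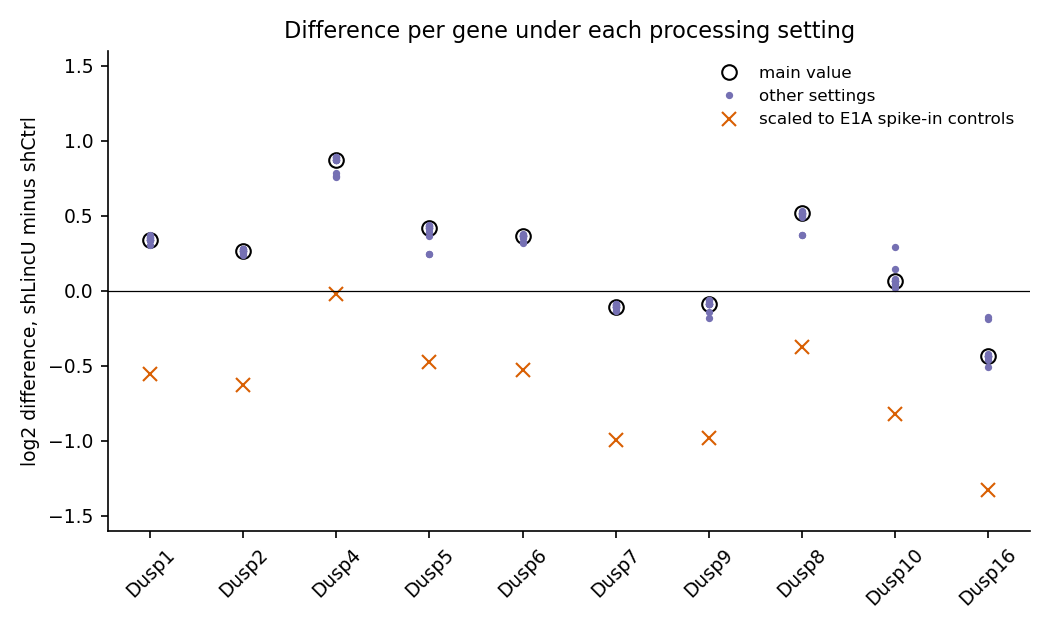
Log2 difference of each phosphatase, shLincU minus shCtrl, under the main setting (open circles), under 12 other settings (dots; 11 for Dusp10) and scaled to the E1A spike-in controls (crosses). The dots stay on the same side of 0 as the main value for each gene, while all 10 crosses lie below 0, from -1.33 for Dusp16 to -0.020 for Dusp4.

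RefSeq promoter entries (build GRCm38.p6) were held for 8 of the 10 genes, Dusp4 and Dusp9 not among them. The 250 bases before the start were searched on both strands for the cAMP response element TGACGTCA, the AP-1 site TGANTCA and the ETS hexamer CCGGAA. Also searched were the core TGACG that lies within the first of these, and the CArG box, which serum response factor binds. These sites are shown because immediate early phosphatase genes are known to be induced through such elements. The promoters of Dusp1, Dusp5 and Dusp8, the members with a cAMP response element or a CArG box, are printed with those matches in capitals.
Dusp1, chr17:26508473-26508722, reverse strand: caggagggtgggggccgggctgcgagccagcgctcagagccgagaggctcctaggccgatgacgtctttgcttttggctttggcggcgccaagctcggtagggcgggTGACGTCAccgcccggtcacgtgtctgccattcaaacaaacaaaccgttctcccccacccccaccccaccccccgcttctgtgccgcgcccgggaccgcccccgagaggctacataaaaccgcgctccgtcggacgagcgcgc
Dusp5, chr19:53528895-53529144, forward strand: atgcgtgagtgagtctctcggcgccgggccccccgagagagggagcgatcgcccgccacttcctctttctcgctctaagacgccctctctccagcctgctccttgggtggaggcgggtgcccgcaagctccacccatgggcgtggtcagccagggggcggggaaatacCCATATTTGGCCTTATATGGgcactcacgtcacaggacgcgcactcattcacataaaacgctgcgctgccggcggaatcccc
Dusp8, chr7:142095285-142095534, reverse strand: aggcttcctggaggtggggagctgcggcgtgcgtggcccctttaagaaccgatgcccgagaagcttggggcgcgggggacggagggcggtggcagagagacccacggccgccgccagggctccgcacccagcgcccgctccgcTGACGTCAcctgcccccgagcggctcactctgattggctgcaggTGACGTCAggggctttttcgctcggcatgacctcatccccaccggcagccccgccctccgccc
The full cAMP response element occurred once in Dusp1 and at 2 places in Dusp8, and 1.55% of all 32851 promoter entries hold it. Dusp5 had 2 abutting CArG boxes, and 1.47% of entries hold at least 1. The AP-1 site and the ETS hexamer CCGGAA, present in 6.75% and 12% of entries, had no match in the 8 windows. The shorter ETS core GGAA was not counted, and the printed Dusp5 window holds it, so ETS sites are not shown to be absent. The core TGACG occurred in 4 of the 8, those of Dusp1, Dusp5, Dusp8 and Dusp16, and in 17.8% of entries. The 3 genes printed here differed by 0.34, 0.42 and 0.52, and Dusp16, with the TGACG core alone, by -0.44. The 4 with none of the searched sequences in the window, Dusp2, Dusp6, Dusp7 and Dusp10, differed by 0.27, 0.37, -0.11 and 0.067.

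The substrates and the rest of the pathway were read from fixed lists. The 13 MAP kinases were all measured, 9 of them higher, against 53.1% of all genes, with a median of 0.27. None was at least 1.5-fold apart, while 4.78% of all genes were that much higher and 4.84% lower. Mapk6, an atypical MAP kinase, was highest at 0.56 and Mapk8, which encodes JNK1, lowest at -0.23. Mapk3, which encodes ERK1, was at 0.50 ± 0.20. The 7 MAP kinase kinases, which phosphorylate the sites these phosphatases clear, had a median of -0.024, from Map2k6 at -0.28 to Map2k2 at 0.17. Of 8 genes for other phosphatases that act on MAP kinases, 6 were measured on both arrays, with a median of -0.12, from Ppm1b at -0.23 to Ptpn5 at 0.30. Of the other two, Ptpn7 had a probe well above background for shCtrl only and Ptprr had none for either.

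Other feedback inhibitors and ETS targets of ERK had 10 of 11 genes measured, with a median of 0.10. Of these, 6 were higher and 4 lower, against 53.1% and 46.9% of all genes. Etv4, an ETS factor induced by FGF, was highest at 0.42, and Spry4, a feedback inhibitor of receptor signalling, lowest at -0.44. Immediate early genes had 12 of 13 measured, 7 higher and 5 lower, against the same shares of all genes. Their median was 0.045, from Fosl1 at -0.44 to Junb at 0.37. None of the genes of these lists that were measured on both arrays was at least 1.5-fold apart. Of all genes, 4.78% were that much higher and 4.84% lower. Scaled to E1A, every one of these differences moves down by the same 0.89 as those of the phosphatases, since that scaling shifts all genes alike.

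**Figure D4:**
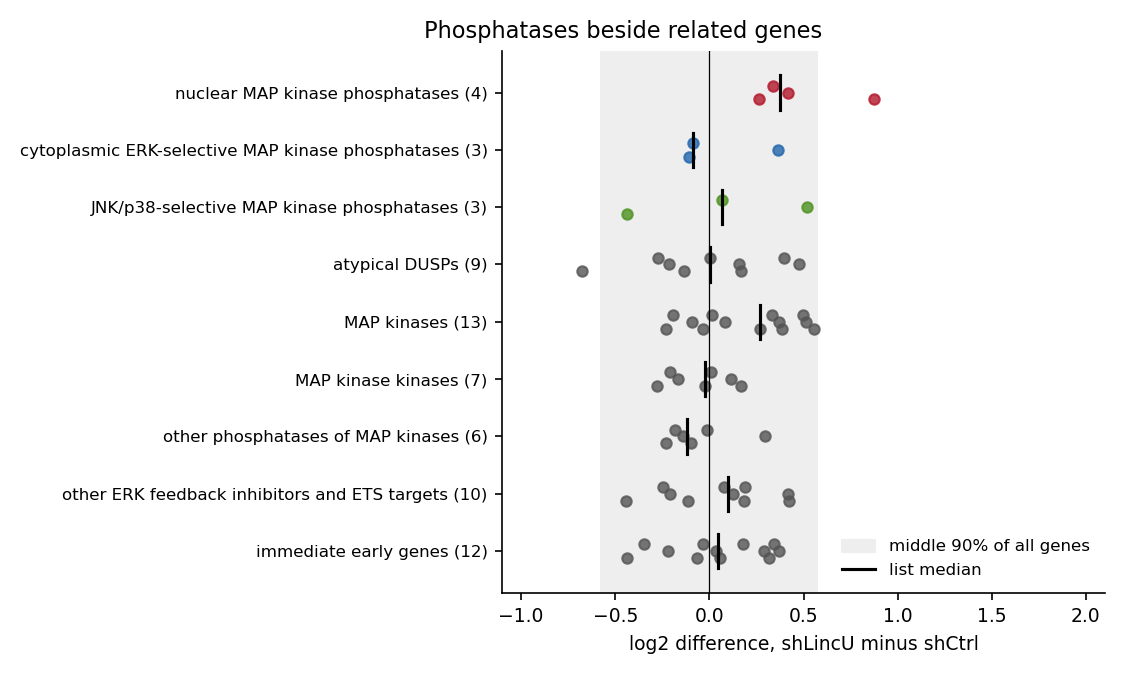
Log2 difference, shLincU minus shCtrl relative to the 75th percentile, of each gene measured on both arrays in the 3 phosphatase classes and 6 lists of related genes, with the number measured in brackets; black bars are list medians and the grey band holds the middle 90% of all genes. The nuclear class lies wholly right of 0, as do 53.1% of all genes, and has a median of 0.38. The MAP kinases have a median of 0.27. Scaled to E1A all points move left by 0.89.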

How the data were processed

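Per the labels, Cy3-labelled RNA from 1 shCtrl and 1 shLincU culture was hybridised to one-colour Agilent arrays. Per the submitters' processing notes, the deposited intensity values were made with Agilent Feature Extraction 10.7.1.1, and the file headers record spatial and multiplicative detrending with a preset multiplicative error. The other deposited columns used are flags and spot positions. The deposited value table holds log2 values; against the scanner values its slope was 1.00 on both arrays and its median 5.65 in each column, so its scale and direction are known and its centring is not.

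Outlier spots were left out, spots of a probe averaged, and probes well above background on both arrays averaged per gene. Genes were named through RefSeq for 32983 probes by accession, for 10220 by symbol and for 520 by synonym, while 12867 stayed under their array name; members were taken by the array's gene name. With 1 array per group no test was made; genes were counted at 1.5-fold and 2-fold. All members and their probes are named, and of each related list the highest and lowest gene; Mapk3, the marker genes named and genes not measured on both arrays were added after their values were seen. Members and lists were chosen with earlier results of these data known. The calculation was tested on simulated data. Work was done in R 4.3.3 with limma 3.58.1 and in Python 3.11.15 with numpy 2.4.6, pandas 2.3.3 and matplotlib 3.10.9.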

Additional observations from a re-analysis of the deposited data

How the results depend on the processing

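No paired analysis was possible because there is a single array for shCtrl and a single one for shLincU, which also leaves nothing to leave out. Besides E1A scaling, the alternatives were background correction by normexp (offset 50), quantile normalization, cyclic loess, median centring, the deposited value table, no background filter, another detection flag, the brightest probe, the median over probes, outlier spots kept, the removal of spots beside discordant spots (at least 2 of 14 neighbours at least 2-fold apart in one direction), and, chosen after seeing the data, values less the local median of surrounding spots. Under these 12 no phosphatase changed sign, but several of them could hardly move the values. The brightest probe and the median over probes cannot change the 8 members with a single measured probe. No member spot was an outlier, and median centring shifts all genes alike. The median of the 10 ranged from 0.25 to 0.34, Dusp4 from 0.76 to 0.89, Dusp6 from 0.32 to 0.38, Dusp9 from -0.18 to -0.062 and Dusp16 from -0.51 to -0.17. Dusp10 was not measured once spots beside discordant spots were removed. With normexp the median of the JNK and p38 class was 0.29, because Dusp10 was at 0.29 there.

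Scaled to E1A, the medians were -0.59 for all 10, -0.52 for the nuclear, -0.98 for the cytoplasmic and -0.83 for the JNK and p38 class, and Dusp4 was at -0.020. At least 1.5-fold higher were then 0 members, at least 1.5-fold lower 5, and at least 2-fold apart 1, against 0.4%, 84.4% and 32.5% of all genes. The scaling moves all genes by -0.89, and relative to the median of all genes the phosphatase median stayed 0.28. Without a background filter the median of all genes was 0.14 and 6 phosphatases, not 7, lay above it. Dim signals limit Dusp10, whose error was 0.37.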

Other observations

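Most atypical DUSPs are small relatives that share the catalytic domain but lack the kinase-binding domain of the MAP kinase phosphatases, and many act on other substrates. Of 14 looked up, 9 were measured on both arrays, 5 higher and 4 lower, against 53.1% and 46.9% of all genes. Their median was 0.0023. Dusp14, also called MKP-6, was highest at 0.47 ± 0.14 (scanner error) over 2 probes. Dusp3, or VHR, which can act on ERK and JNK, was lowest at -0.67 ± 0.20 on a single probe. It was the only one of the 9 at least 1.5-fold apart, while 4.84% of all genes were that much lower and 4.78% higher. Dusp13, Dusp15 and Dusp18 had probes that passed the background flag for shCtrl alone, and no fold is given for them. Dusp21 and Dusp23 were not well above background on either array.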
